A study of Mus musculus with 6 samples.

Results

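The genes described here are Srebf2, Insig1, Hmgcs1, Idi1, Fdps, Sqle and Cyp51, which encode the transcription factor SREBP2, one of its regulators and 5 enzymes of cholesterol synthesis. Every probe whose gene name on the array is one of these symbols was taken, which gave 11 probes of 7 genes out of 56605 probes and 37074 gene names. The data are one-colour Agilent expression arrays of whole hypothalamus, 1 array for each mouse. All mice were male C57BL/6J animals with diet-induced obesity (DIO), fed a high-fat diet with 60 kcal% fat, which per the methods began at 6 weeks of age and lasted 16 weeks. The 3 mice labelled GSK-J4 received 30 mg/kg of this inhibitor of the Kdm6 histone H3 lysine 27 demethylases, and the 3 mice labelled vehicle received 0 mg/kg. Both groups were injected intraperitoneally. Per the methods, injections were given at zeitgeber time (ZT) 2 h, counted from lights on, and hypothalami were collected at ZT 6 h. The series text places the tissue at 4 days after exposure, whereas the methods describe daily injections for 21 days, and which of these applies to the 6 arrays was not settled. The question addressed here is whether sterol synthesis transcripts differed between hypothalami of treated and untreated DIO mice.

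SREBP2 is held in the endoplasmic reticulum by SCAP and the INSIG proteins when membrane sterol is plentiful. When sterol falls, the complex leaves INSIG, moves to the Golgi, is cut by the site-1 and site-2 proteases, and the released fragment activates the genes of cholesterol synthesis and uptake. INSIG1 is itself a target of this factor, which closes a feedback loop. The brain makes almost all of its own cholesterol, since lipoproteins of the blood do not cross the blood-brain barrier. In the mevalonate pathway, HMG-CoA synthase (Hmgcs1) makes HMG-CoA, isopentenyl diphosphate isomerase (Idi1) interconverts the 5-carbon units, and farnesyl diphosphate synthase (Fdps) joins them into farnesyl diphosphate. Squalene epoxidase (Sqle) then commits squalene to sterols, and lanosterol 14-alpha-demethylase (Cyp51) starts the trimming of lanosterol toward cholesterol.

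The array measured each of these transcripts with probes of 60 bases. Opening stretches of 30 bases are shown for the 5 probes on which the results below turn, because Hmgcs1 was read by more than 1 probe and because the base composition of a probe was related to its difference. Capitals mark G and C.
Insig1, A_51_P290207: aCaGCataGaaCaCaaCaCGtGGGaCCtaa
Hmgcs1, A_55_P2032966: aGtaattttaaCGtttGGGtGCCaaGaaGt
Hmgcs1, A_52_P119039: GGCaGtGtCataatGtGaCtGGaGtGaGaa
Fdps, A_55_P1966804: tCttCatGGaaCttGCaaaCaaGatCtaCa
Idi1, A_55_P2028961: CtaatttCttGCtaaCtCtGaaCaGttGat
Over the full 60 bases, the Insig1 and Fdps probes and Hmgcs1 probe A_55_P2032966 each held 27 G or C bases (45%), Hmgcs1 probe A_52_P119039 held 24 (40%) and the Idi1 probe held 21 (35%). In the build of the array files (mm9, NCBI37), the Insig1 probe lay at chr5:28404246-28404305 on the plus strand and the Idi1 probe at chr13:8891524-8891583 on the plus strand. The Fdps probe lay at chr3:88897549-88897608 on the minus strand. Both Hmgcs1 probes were placed on an unordered contig of chromosome 13, at bases 114793 to 114852 for A_55_P2032966 and 121437 to 121496 for A_52_P119039. The first of these was listed for the RefSeq transcript NM_145942 and the second for the cDNA AK078743. Whether each probe lies in coding or untranslated sequence was not analysed here.

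Promoter sequence was at hand in RefSeq (GRCm38.p6) for 5 of the 7 genes, namely Srebf2, Insig1, Hmgcs1, Idi1 and Cyp51. Windows of 250 bases before to 50 bases after the start were searched on both strands for CACNCCAC, the letters at the core of the sterol regulatory element, and for CCAAT, the letters bound by the cofactor NF-Y. Neither motif contains the other. CACNCCAC was found in 2 of the 5 windows, those of Hmgcs1 and Insig1, and in 6.24% of all 32851 promoters. CCAAT was found in 5 of the 5 windows and in 37.4% of all promoters. The 2 windows with CACNCCAC are shown for 100 bases each, with both motifs in capitals.
Hmgcs1, chr13:119690169-119690268, plus strand: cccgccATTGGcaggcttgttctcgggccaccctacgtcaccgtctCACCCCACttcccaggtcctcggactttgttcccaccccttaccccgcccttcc
Insig1, chr5:28071312-28071411, plus strand: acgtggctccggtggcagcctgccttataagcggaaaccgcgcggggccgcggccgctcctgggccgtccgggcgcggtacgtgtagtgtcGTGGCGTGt
In Hmgcs1 the motif began at position -136 from the start and followed a reversed CCAAT at -176. In Insig1 it began at -9 and was read on the opposite strand. These matches describe letters, and binding was not measured in the files used here.

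All 3 vehicle arrays were on slide 1 and all 3 GSK-J4 arrays were on slide 2, scanned separately, so treatment and slide cannot be told apart in any difference below. The share of probes well above background was 62.8% to 63.6% on the vehicle arrays and 57.7% to 58.7% on the GSK-J4 arrays. Before quantile normalisation, the 75th percentile of spot signal was 1136 to 1335 on the vehicle arrays and 606 to 693 on the GSK-J4 arrays. The vehicle 1 array stood apart in the 6 choroid plexus markers. Its summed level of these markers was the top of the vehicle range, 11.62 to 16.92 on the log2 scale, against 11.36 to 13.61 in the GSK-J4 group. Of the 12 hypothalamic neuron markers, Npy, Pomc, Cartpt, Sst, Oxt, Hcrt and Nr5a1 each had a probe well above background on all 6 arrays, whereas Avp, Pmch, Trh and Sim1 had none that was well above background throughout either group. Between the groups, 2 of 9 tested hypothalamic probes were called higher (Npy and Pomc). Of 15 probes of general neuron markers, 1 was higher and 3 were lower. Of 18 astrocyte probes, 2 were higher and 1 was lower, and 1 of 8 microglia probes was higher. Over all tested probes of the array, 8.39% were called higher and 8.42% lower. Limma called 0 of 33 tested probes of oligodendrocyte, endothelial, choroid plexus and anterior pituitary markers, with 3 at an unadjusted p under 0.05 and 0 by the unmoderated equal-variance test after adjustment. The part of tissue composition in the results was not tested, and fewer cells of a type cannot be told apart from less RNA in each cell.

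Values are the deposited quantile-normalised log2 signals. Differences are GSK-J4 minus vehicle from limma, fitted over the 34443 probes that were detected (flagged as well above background by the scanner software) on every array of the vehicle group, the GSK-J4 group or both, with Benjamini-Hochberg adjustment over all of them, and a probe was called at an adjusted p of at most 0.05. For a single probe, the exact permutation test of 3 arrays against 3 cannot go below p = 0.1 (two-sided).

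Insig1, which encodes the sterol-dependent anchor of SCAP and SREBP2, was the gene of the 7 that rose. Its 1 probe read 7.63, 7.68 and 7.75 on the vehicle arrays and 8.45, 8.13 and 8.38 on the GSK-J4 arrays. All 3 treated arrays lay above all 3 vehicle arrays, and the lowest treated array was replicate 2. The means were 7.68 ± 0.06 and 8.32 ± 0.17 (SD, n = 3 each). The difference was 0.64 on the log2 scale, a 1.56-fold rise (SE 0.10, 95% confidence interval 0.38 to 0.90, limma adjusted p = 0.022). The exact permutation p was 0.1, the smallest this design allows. The rise was also past the 1.5-fold limit that the methods combine with an unadjusted p of at most 0.05, by limma and by the methods' t-test. The call was lost without vehicle replicate 1 (difference 0.61, limma adjusted p = 0.071), without vehicle replicate 2 (0.63, adjusted p = 0.082) and without vehicle replicate 3 (0.67, adjusted p = 0.077). It was kept without any 1 of the GSK-J4 arrays, with differences of 0.57 to 0.73. The Insig1 difference kept its sign under all 19 alternative settings and was called in 13 of them.

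**Figure D1:**
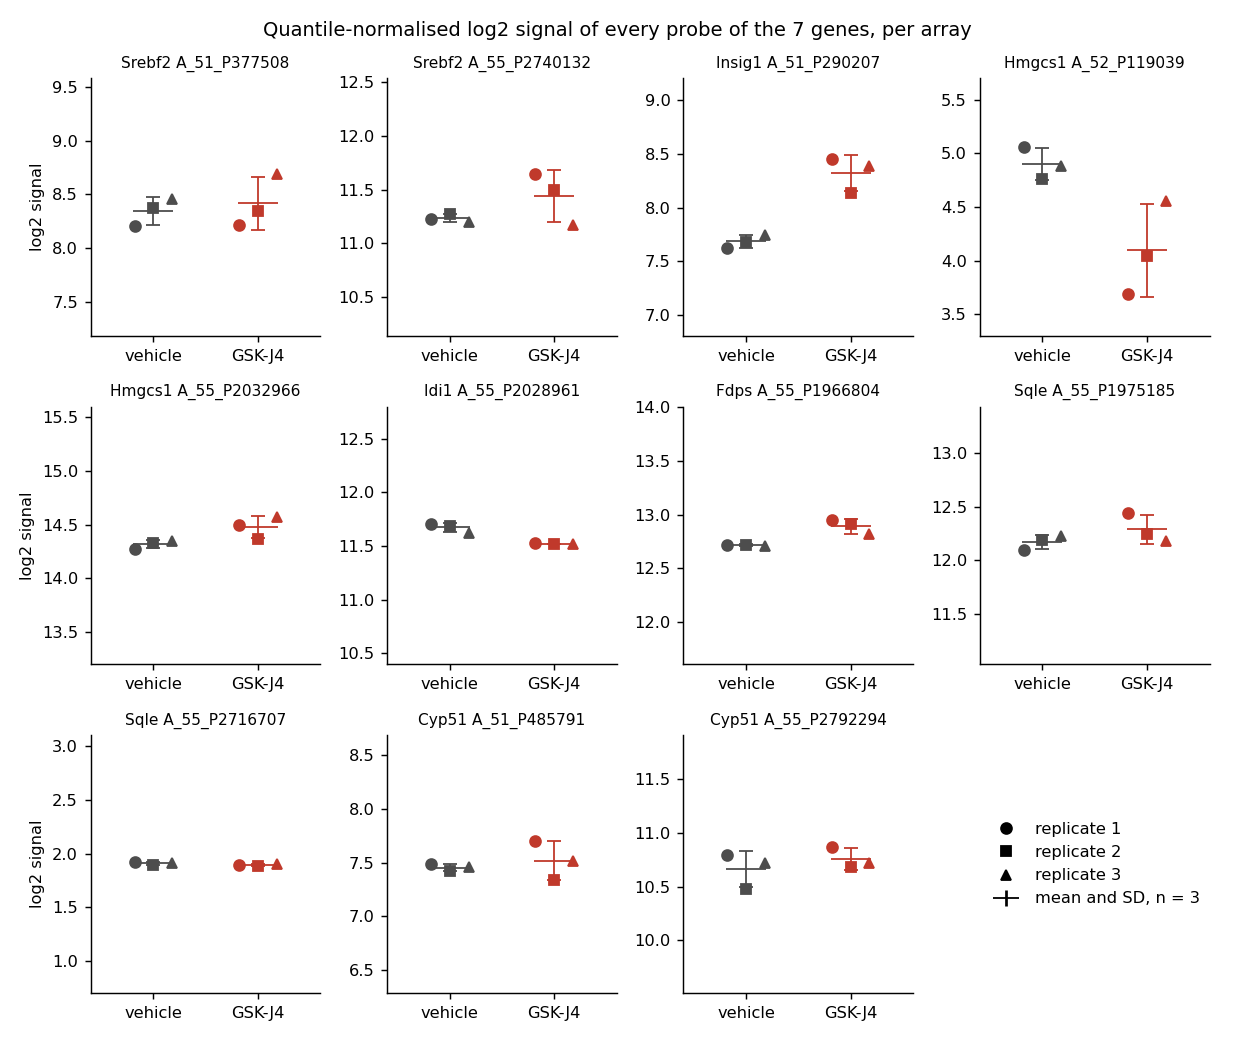
Quantile-normalised log2 signal (vertical axis, the same span of 2.4 units in each panel) of the 11 probes on each array, with vehicle in grey and GSK-J4 in red, a symbol for each replicate number, and lines for the mean and SD of 3 arrays. For Insig1 the treated arrays (8.13 to 8.45) lie above the vehicle arrays (7.63 to 7.75), while for Srebf2 and Cyp51 the groups overlap on both probes.

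Srebf2, the gene of the transcription factor itself, did not pass the test on either probe. Probe A_51_P377508 read 8.20, 8.38 and 8.45 on the vehicle arrays and 8.21, 8.35 and 8.69 on the GSK-J4 arrays. The groups overlapped, and only treated replicate 3 lay outside the vehicle range. The difference was 0.07 (SE 0.15, 95% confidence interval -0.29 to 0.44, limma adjusted p = 0.74). Probe A_55_P2740132 read 11.22, 11.27 and 11.20 on the vehicle arrays and 11.65, 11.50 and 11.17 on the GSK-J4 arrays. Here treated replicates 1 and 2 were high and replicate 3 was below every vehicle array, the reverse of their order on the other probe. The difference was 0.21 (SE 0.13, 95% confidence interval -0.12 to 0.53, limma adjusted p = 0.30). With the trend of differences on probe base composition removed, it was -0.04. The intervals leave room for a rise of Srebf2 of up to 0.44 or 0.53 and for a fall of up to 0.29 or 0.12.

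Hmgcs1, the enzyme that forms HMG-CoA, was called on neither of its probes. Probe A_55_P2032966 read 14.28, 14.33 and 14.35 on the vehicle arrays and 14.50, 14.36 and 14.57 on the GSK-J4 arrays. The groups did not overlap, but treated replicate 2 was within 0.02 of the highest vehicle array. The difference was 0.16 (SE 0.08, 95% confidence interval -0.04 to 0.36, limma adjusted p = 0.21), and with 75th percentile scaling in place of quantile normalisation it was 0.46 (adjusted p = 0.024).

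Hmgcs1 probe A_52_P119039 was dim, reading 5.06, 4.76 and 4.88 on the vehicle arrays and 3.69, 4.05 and 4.55 on the GSK-J4 arrays. It was well above background on all 3 vehicle arrays and on 0 of the 3 GSK-J4 arrays, and the groups did not overlap. The vehicle mean of 4.90 was 1.39-fold above a treated level set as follows. Each treated array counted with the lowest signal well above background of any probe, or with this probe's own value where that was higher. That floor is not the detection limit of this probe, so 1.39-fold is not a strict minimum. With normexp background correction and an offset of 50, the fitted difference was -0.18. The fitted difference was -0.80 (SE 0.23, 95% confidence interval -1.36 to -0.24, limma adjusted p = 0.063), short of a call. The probe passed the filter through the vehicle group alone, so the fitted difference is given as a description.

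Idi1, which makes dimethylallyl diphosphate from isopentenyl diphosphate, read 11.71, 11.69 and 11.62 on the vehicle arrays and 11.52 on all 3 GSK-J4 arrays. The groups did not overlap, and the treated SD of 0.004 was below the vehicle SD of 0.045. The difference was -0.16 (SE 0.07, 95% confidence interval -0.32 to 0.01, limma adjusted p = 0.15). The Idi1 probe had the lowest share of G and C of the 11 probes, and with that trend removed the difference was 0.04.

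Fdps, which supplies farnesyl diphosphate to sterols and to protein prenylation, read 12.72, 12.72 and 12.71 on the vehicle arrays and 12.95, 12.91 and 12.82 on the GSK-J4 arrays. All treated arrays were higher than all vehicle arrays. The difference was 0.18, a 1.13-fold level (SE 0.07, 95% confidence interval 0.00 to 0.35, limma adjusted p = 0.13). With 75th percentile scaling it was 0.33 (adjusted p = 0.030), the setting of the 19 in which Fdps was called.

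Sqle, a rate-limiting step of the sterol branch, was measured by probe A_55_P1975185 at 12.10, 12.19 and 12.22 on the vehicle arrays and at 12.44, 12.24 and 12.18 on the GSK-J4 arrays. Treated replicate 3 lay within the vehicle range and replicate 1 stood highest. The difference was 0.12 (SE 0.10, 95% confidence interval -0.12 to 0.35, limma adjusted p = 0.41). The second Sqle probe, A_55_P2716707, was listed for another transcript (ENSMUST00000161953), read 1.88 to 1.92 on the 6 arrays and was well above background on 0 of them. It was not tested.

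Cyp51, the demethylase of lanosterol, overlapped between the groups on both probes. Probe A_51_P485791, which spans an exon junction at chr5:4092033-4092439 (mm9, minus strand), read 7.49, 7.42 and 7.46 on the vehicle arrays and 7.70, 7.34 and 7.52 on the GSK-J4 arrays. Probe A_55_P2792294 read 10.80, 10.48 and 10.72 on the vehicle arrays and 10.87, 10.68 and 10.72 on the GSK-J4 arrays. On both, treated replicate 1 was the highest array and treated replicate 2 the lowest of its group. The differences were 0.06 (95% confidence interval -0.20 to 0.33, limma adjusted p = 0.69) and 0.09 (-0.18 to 0.37, adjusted p = 0.58).

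**Figure D2:**
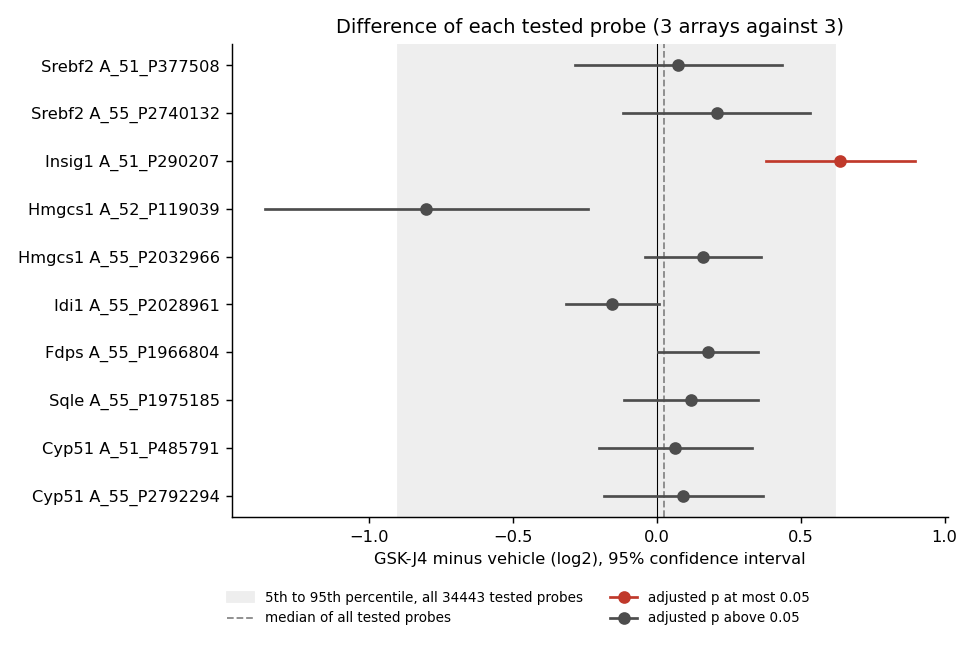
Difference of each of the 10 tested probes (GSK-J4 minus vehicle, log2, horizontal axis) with its 95% confidence interval from limma, over a grey band from the 5th to the 95th percentile of all tested probes (-0.90 to 0.62). Insig1 (0.64) is the point in red, with an adjusted p of at most 0.05, and the interval of Fdps also leaves out 0 before adjustment. The dim Hmgcs1 probe passed the filter through the vehicle group alone, so its interval is drawn as a description.

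Of the 11 probes, 10 passed the filter, at least 1 for each of the 7 genes, and 1 of them (Insig1) was called higher, next to 8.39% of all tested probes. Limma called 0 lower, next to 8.42% of all tested probes. The dim Hmgcs1 probe, which entered the test through the vehicle group alone, is left out of the next counts, which cover the 9 probes detected on all 6 arrays. At an unadjusted limma p of at most 0.05 there were 2 of the 9, Insig1 and Fdps, next to 36.5% of all tested probes in either direction. With the fit limited to the 30940 probes detected on all 6 arrays, 11879 reached that limit. After adjustment, the unmoderated equal-variance test called 1 of the 9 higher (Insig1) and 1 lower (Idi1), next to 5.32% and 4.31% of all tested probes. By the methods' limits on fold and unadjusted p, Insig1 was higher, next to 4.79% of all tested probes, and limma gave 0 of the 9 lower, next to 7.86%. The groups did not overlap, with treated higher, for 3 of 9 probes (Insig1, Fdps and Hmgcs1 probe A_55_P2032966), next to 24.5% of all tested probes. They did not overlap, with treated lower, for 1 of 9 (Idi1), next to 21.2%. The median difference over the 10 probes was 0.10 (0.12 without the dim Hmgcs1 probe), and 8 of the 10 were above 0 (6 of 10 with 75th percentile scaling, where Srebf2 probe A_51_P377508 and Cyp51 probe A_51_P485791 were below 0), compared with a median of 0.02 and 52.7% above 0 over all tested probes.

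The treated arrays did not contribute evenly. Among the 9 probes well above background on all 6 arrays, GSK-J4 replicate 1 gave the highest treated value for 7, replicate 2 for 0 and replicate 3 for 2. On the vehicle side the highest value was spread over replicates 1, 2 and 3 for 3, 2 and 4 probes. The mean standardised level of the 7 genes, taking the brightest such probe of each, was -0.53 to -0.35 on the vehicle arrays, 1.04 on GSK-J4 replicate 1, and 0.13 and 0.08 on replicates 2 and 3. Over the 6 arrays, the gene names whose probe followed this mean most closely were Pgk1 and P4ha1 (Pearson r = 0.998 each), Ikzf3 (0.997), a noncoding interval on chromosome 9 (0.995) and Selt (0.994). These were the top of 30931 probes compared over 6 arrays, and 0 of the 5 was called in limma (adjusted p 0.067 to 0.14).

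Among the other enzymes of cholesterol synthesis, 24 probes of 12 genes were tested. Of these, 3 rose and 1 fell, next to 8.39% and 8.42% of all tested probes. The median difference was 0.17, and 15 of the 24 were above 0, next to 52.7% of all tested probes. Mvd, the mevalonate diphosphate decarboxylase, read 9.69, 9.68 and 9.59 on the vehicle arrays and 10.18, 10.07 and 10.24 on the GSK-J4 arrays. Its rise was 0.51 (limma adjusted p = 0.020). Ebp, the sterol isomerase, rose by 0.39 on 1 probe (adjusted p = 0.030), while its other probe differed by 0.16 (adjusted p = 0.21). Pmvk, the phosphomevalonate kinase, rose by 0.38 on 1 of 2 probes (adjusted p = 0.0498).

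Fdft1, the squalene synthase, differed by 0.16 and 0.01, and Dhcr7, which makes cholesterol from 7-dehydrocholesterol, by 0.22, none of them called. Nsdhl, the sterol C4 dehydrogenase, was the 1 gene of this list with a probe called lower. Its probe A_51_P146701, listed for a cDNA, went from a mean of 8.10 ± 0.13 to 7.42 ± 0.20 (SD), without overlap. The difference was -0.68 (limma adjusted p = 0.028). The other Nsdhl probe, listed for the RefSeq transcript and with a vehicle mean of 8.81, differed by -0.50 and was not called (adjusted p = 0.084). With the base composition trend removed, none of these 4 calls remained (limma adjusted p 0.052 to 0.29), and the differences were 0.33 for Ebp, 0.27 for Mvd, 0.15 for Pmvk and -0.49 for Nsdhl. In that fit 1 probe of the lanosterol synthase Lss was called (0.66, limma adjusted p = 0.039). The other tested Lss probes differed by 0.29 and -0.04 (adjusted p = 0.225 and 0.82), so the probes of Lss did not share a direction. The median difference of the 24 in that fit was 0.11.

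Of 14 tested probes of 7 genes that control SREBP, 1 rose and limma called 0 lower, next to 8.39% and 8.42% of all tested probes. At an unadjusted limma p under 0.05 there were 3 lower, and the unmoderated equal-variance test called 0 lower after adjustment. The median difference of the 14 was -0.10, and -0.02 with the base composition trend removed. Insig2, the other INSIG gene, differed by -0.37, -0.39 and -0.14 on its 3 probes (limma adjusted p = 0.060, 0.10 and 0.51). These probes held 35% to 36.7% G and C, and with the trend removed Insig2 differed by -0.17, -0.20 and -0.02. Scap, the sterol sensor that escorts SREBP, differed by -0.09 (adjusted p = 0.45), and Srebf1, the gene of the fatty acid regulator SREBP1, by 0.22 (adjusted p = 0.26). With the trend removed these were -0.33 and -0.03. Mbtps1, the site-1 protease, rose on 1 of 4 tested probes (0.47, adjusted p = 0.043), and its other probes differed by -0.20 to -0.01. The called probe was the dimmest, with a vehicle mean of 5.30. The probes with vehicle means of 8.40, 12.35 and 12.46 differed by -0.20, -0.11 and -0.01. With the trend removed the difference of the called probe was 0.41 and missed the threshold (adjusted p = 0.074).

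**Figure D3:**
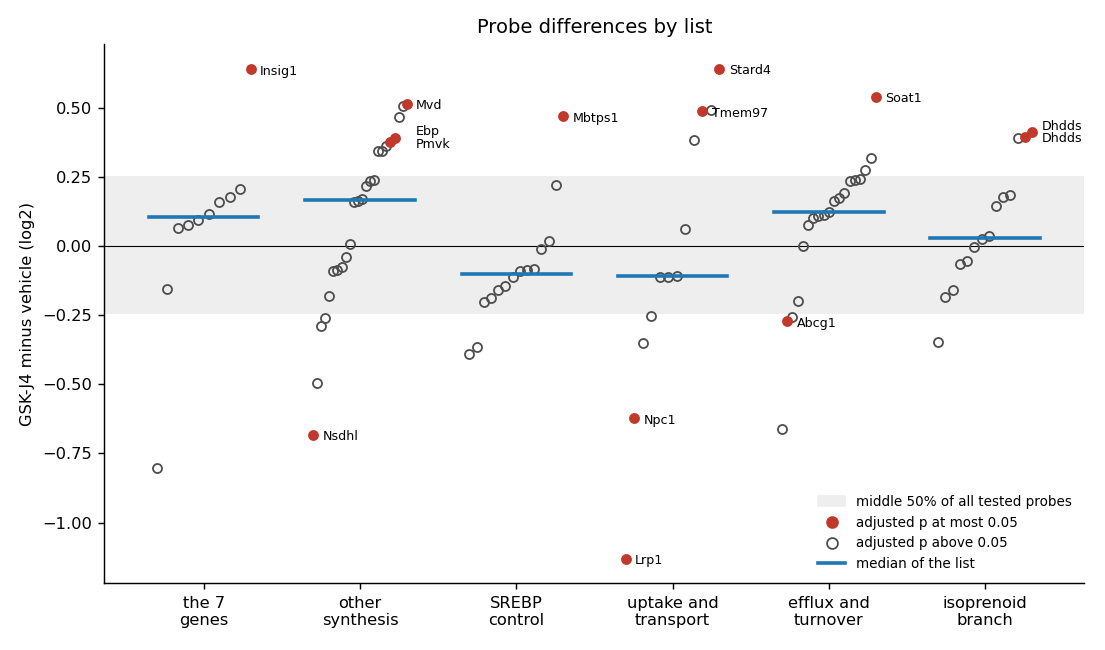
Difference of each tested probe (GSK-J4 minus vehicle, log2, vertical axis) for the 7 genes and 5 lists of related genes, with called probes filled in red and named, the median of each list as a blue line and the middle 50% of all tested probes (-0.24 to 0.25) in grey. The median is 0.10 for the 7 genes and 0.17 for the other synthesis genes. Among uptake and transport genes, called probes rose (Stard4, Tmem97) or fell (Lrp1, Npc1), and the brighter probes of Lrp1 and Npc1 were not called.

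Probes of uptake and transport genes moved both ways. Of 12 tested probes, 2 rose and 2 fell, next to 8.39% and 8.42% of all tested probes, and the median difference was -0.11. Stard4, a sterol carrier of the cytosol, read 8.71, 8.69 and 8.86 on the vehicle arrays and 9.49, 9.29 and 9.40 on the GSK-J4 arrays, a rise of 0.64 (limma adjusted p = 0.017). Tmem97, the sigma-2 receptor that binds NPC1, rose by 0.49 on 1 probe (adjusted p = 0.034), and its other probes differed by 0.38 and 0.49. Npc1, the lysosomal cholesterol exporter, fell on 1 of 3 tested probes (-0.62, adjusted p = 0.024), and the others differed by -0.35 and -0.11. The fall was on a probe listed for an Ensembl transcript, with a vehicle mean of 6.85. The difference of -0.11 was on the RefSeq probe, with a vehicle mean of 12.22. Lrp1, a receptor for apolipoprotein E, fell on 1 probe (-1.13, adjusted p = 0.048) and differed by 0.06 on the other tested probe. The fall was again on a probe listed for an Ensembl transcript, with a vehicle mean of 8.0, and the RefSeq probe had a vehicle mean of 12.38. With the base composition trend removed, Stard4 and Tmem97 kept their calls (0.77 and 0.43). The differences of Npc1 and Lrp1 were then -0.43 and -0.94, past the threshold for neither (adjusted p = 0.052 and 0.085).

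Among genes of efflux and turnover, 1 of 19 tested probes rose and 1 fell, with a median difference of 0.12. The rise was on 1 of 4 tested probes of Soat1, which esterifies cholesterol (0.54, limma adjusted p = 0.033), and the fall was that of the exporter Abcg1 (-0.27, adjusted p = 0.0496). Cyp46a1, the neuronal enzyme that clears brain cholesterol as 24-hydroxycholesterol, differed by 0.19 (adjusted p = 0.35). In the isoprenoid branch, 2 of 14 tested probes rose, both of Dhdds, which builds dolichol (0.41 and 0.39, adjusted p = 0.022 and 0.025). With the base composition trend removed, the calls of Soat1 and of 1 Dhdds probe were kept, and Abcg1 and the other Dhdds probe, at -0.08 and 0.16, missed the threshold (adjusted p = 0.47 and 0.18). Limma called 0 of the 14 lower, with 0 at an unadjusted p under 0.05 and 0 by the unmoderated equal-variance test. Over the 5 lists, 9 of 83 tested probes rose and 4 fell (10.8% and 4.82%), next to 8.39% and 8.42% of all tested probes. Of 30 genes with several tested probes, the 7 genes included where they had 2, 12 had probes above 0 and probes at or below 0. Soat1 is among these 12 through 1 probe with a rounded difference of 0, and its other tested probes were above 0.

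Differences followed the base composition of the probe across the whole array. The median difference was -0.13 over the 9478 tested probes with over 32% and up to 37% G and C, 0.07 over the 10776 with over 42% and up to 47%, and 0.23 over the 3692 with over 52% and up to 57%. The share called higher in these classes was 1.96%, 8.8% and 21%. The Insig1 difference of 0.64, from a probe at 45%, stood above the median of its class (0.07), and with the trend removed it was 0.58 (limma adjusted p = 0.032). The Idi1 difference of -0.16, at 35%, and that of Srebf2 probe A_55_P2740132, 0.21 at 55%, were close to the medians of their classes (-0.13 and 0.23). With the trend removed over the array, Insig1 was again the 1 called probe of the 10, and the median of the 10 was 0.06. In that fit 4.94% of all tested probes were called higher and 5.74% lower. The part of probe composition in the other differences was not tested.

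**Figure D4:**
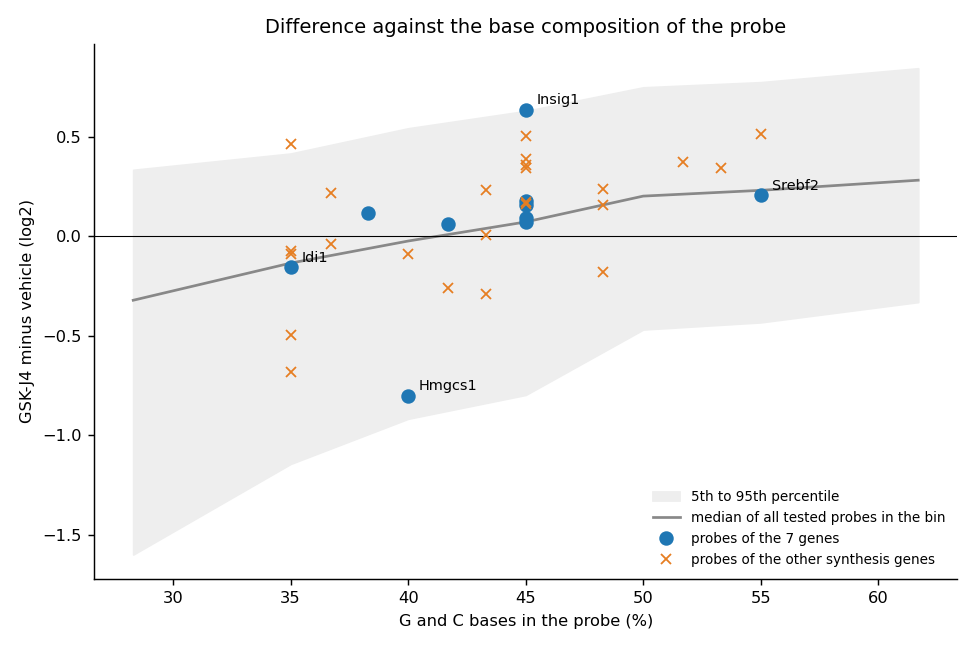
Difference (GSK-J4 minus vehicle, log2, vertical axis) against the percentage of G and C in the probe (horizontal axis), with the 10 tested probes of the 7 genes in blue and the 24 of the other synthesis genes in orange, over the median (line) and 5th to 95th percentile (band) of all tested probes in 7 classes. Idi1 and the labelled Srebf2 probe lie on the line, and Insig1 lies at the upper edge of the band.

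**Figure D5:**
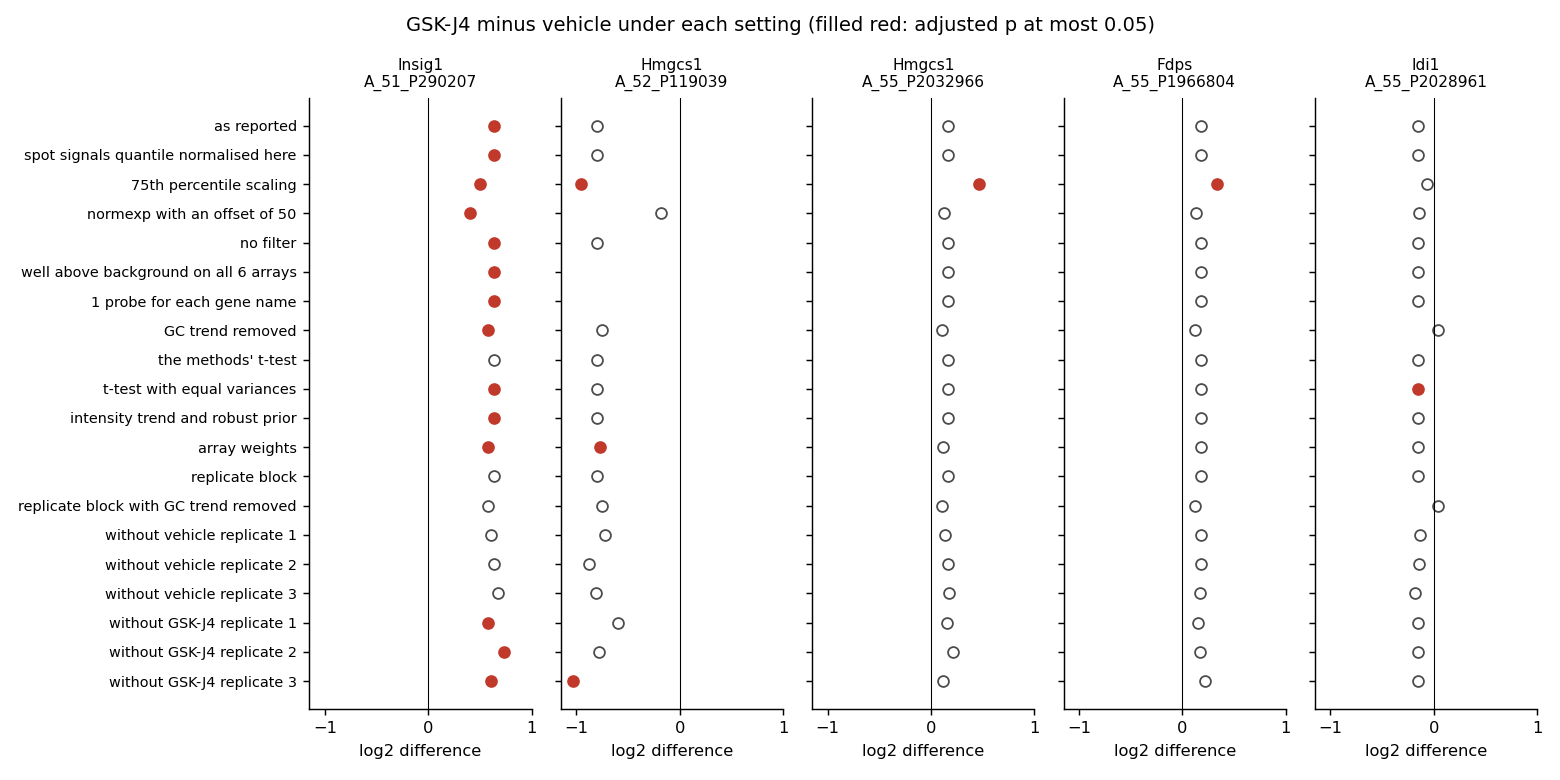
Difference (GSK-J4 minus vehicle, log2, horizontal axis) of 5 probes as reported and under each of the 19 alternative settings (rows), with filled red points for an adjusted p of at most 0.05. Insig1 stays between 0.40 and 0.73, and the dim Hmgcs1 probe, which is missing where a setting leaves it out, ranges from -1.03 to -0.18.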

How the data were processed

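Per the labels, each array held Cy3-labelled cRNA of 1 hypothalamus. The authors extracted spot intensity values with Agilent Feature Extraction (version 10.7.1.1) and deposited, beside these scanner files, a table of log2 values that per the methods were quantile-normalised in GeneSpring. Its 6 columns held the same sorted values to within 0.00424, and each correlated at r of at least 0.999 with the log2 processed signal of its own array. Here the log2 table was used as deposited, and flags and signals came from the scanner files. Probes detected on every array of either group were fitted with limma 3.58.1 in R 4.3.3 (lmFit and eBayes, two-sided, Benjamini-Hochberg). 0 spots of the 11 probes were saturated or marked as outliers. The number of arrays, 3 in each group, limits the precision. The script was tested on simulated data.

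The gene set, the lists of related genes and the cell type markers were chosen with earlier results of these data known. Named were every probe of the 7 genes, the 12 genes of the related lists with a called probe, 6 fixed genes, and the 5 gene names of most alike pattern. Lss was named outside that rule, after its values were seen. Of the listed genes, Acat2 was not analysed here, and 4 genes of the related lists are not reported here and were left out of the list counts. All 7 symbols matched RefSeq.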

Additional observations from a re-analysis of the deposited data

How the results depend on the processing

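The cause of each change below was not tested. Insig1 kept its direction throughout, but its limma adjusted p rose above 0.05 with the replicate block (difference 0.64, adjusted p = 0.082) and with the replicate block with the base composition (GC) trend removed (0.58, adjusted p = 0.11), and its t-test adjusted p did so with the methods' t-test (0.64, adjusted p = 0.12). Over all settings its adjusted p ranged from 0.016 to 0.12. Leaving out 1 array gave 0.57 to 0.73. Deviations from the group means correlated at 0.01, 0.03 and 0.08 for same-numbered arrays, and at 0.09 for vehicle array 2 with GSK-J4 array 1. Correlations this close to 0 cannot settle whether replicate numbers pair the samples. With the replicate block, and with the block and GC trend removed, 0 probes of the array, of the 7 genes or of the lists were called in either direction, although 11070 and 9598 probes had an unadjusted p of at most 0.05.

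Probes of the 7 genes called higher were 1 as reported, 3 with 75th percentile scaling and 0 with the methods' t-test, and 0 to 1 with 1 array left out. Of all tested probes, 8.39%, 11.7% and 0.163% were called higher in the first 3 of these, and 0.0029% to 6.02% with 1 array left out. Probes of the 7 genes called lower were 0 as reported, 1 with 75th percentile scaling, 1 with array weights, and 0 to 1 with 1 array left out (1 without GSK-J4 replicate 3). Of all tested probes, 8.42% were called lower as reported, 11.8% with 75th percentile scaling, 9.98% with array weights and 7.2% without GSK-J4 replicate 3. Where 1 of the 7 genes' probes was called lower in these settings, it was the dim Hmgcs1 probe A_52_P119039. It entered the test through the vehicle group alone, so these calls are given as a description. The unmoderated equal-variance test called 1 other probe lower, that of Idi1, next to 4.31% of all tested probes. Across the array, 2889 were higher and 2899 lower as reported. With 75th percentile scaling they were 4033 and 4060. Higher calls were 1793 without a filter (of 56605 probes), 1700 with the GC trend removed, 56 with the methods' t-test and 1831 with equal variances. Lower calls were 1723 with 1 probe for each gene name (7.79% of 22117 probes), 37 with the methods' t-test and 1484 with equal variances. Leaving out 1 array gave 1 to 2075 higher and 4 to 2481 lower, with at most 2 higher and 12 lower where a vehicle array was left out. For the lists, 9 were higher and 4 lower as reported, against 5 and 2 without a filter and 4 and 1 with 1 probe for each gene name. They were 5 and 0 with the GC trend removed, and 0 and 0 with the methods' t-test. In the lists, lower calls were 2 with equal variances, and leaving out 1 array gave 0 to 8 higher and 0 to 3 lower. Without a filter, 3.17% of all probes were called higher and 3.48% lower. With 1 probe for each gene name, 8.99% were called higher and 7.79% lower. That setting tests fewer probes of the lists, so its counts are not on the same base as 9 and 4.

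Slide as a block was not run, since each slide held 1 group. Signal over background limits Hmgcs1 probe A_52_P119039 to a description, and leaves Sqle probe A_55_P2716707 untested. The 3 arrays in each group leave intervals of the Srebf2, Sqle and Cyp51 differences that include 0 and changes of 0.3 or more.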
